A study of Homo sapiens with 9 samples.

Results

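The genes that carry a cell from G1 into S phase were followed in VCaP prostate cancer cells after silencing of CDO1. They were chosen by gene name in the count table, as the D and E cyclins (CCND1, CCND2, CCND3, CCNE1 and CCNE2), their kinases (CDK2, CDK4 and CDK6) and the inhibitors CDKN1A and CDKN1B, which makes 10 of the 58735 genes counted. D-type cyclins bind CDK4 and CDK6 and start the phosphorylation of the retinoblastoma protein RB. Cyclin E with CDK2 completes it, so that E2F factors are released and switch on the genes of DNA replication. CDKN1A (p21) and CDKN1B (p27) bind these complexes, block CDK2 and help to assemble cyclin D with its kinases. In prostate cancer cells, androgen signalling feeds into the same step, partly through the level of cyclin D proteins.

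All libraries came from VCaP, an established, androgen-responsive prostate cancer line, kept in medium with serum and 2 nM DHT (dihydrotestosterone) and labelled as wild type. The cells received siCtrl, a control siRNA, or 1 of siCDO1A and siCDO1C, a pair of siRNAs that target CDO1, the enzyme that oxidizes cysteine to cysteine sulfinic acid. Each of the 3 groups had 3 libraries, titled as biological replicates 1 to 3, with a batch number equal to the replicate number. The comparisons ask which RNAs differ after CDO1 silencing, in 1 cell line and with RNA taken from whole cultures, and the target of siCtrl is not given in the sources used here. Since each library is a bulk sample, fewer cells of a kind and less RNA per cell cannot be told apart. Both comparisons with siCtrl use the same 3 siCtrl libraries and are therefore not independent of each other.

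CDO1 itself was measured at 14.18, 14.09 and 13.66 CPM (counts scaled to a common library size after TMM normalization) in siCtrl, at 3.28, 2.05 and 2.18 CPM in siCDO1A and at 1.10, 2.81 and 1.16 CPM in siCDO1C. All 6 silenced libraries lay under the 3 controls, with a reduction of 82.1% ± 4.83 (SD, n = 3) for siCDO1A and 87.9% ± 6.98 (SD, n = 3) for siCDO1C. The exact two-sided permutation test gave p = 0.1 for each, the smallest value that 3 against 3 libraries allow.

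The libraries held 12061295 to 16073698 counted reads, with a median of 13243375, and mitochondrial genes took 2.971% to 3.605% of them. On the second principal component of 11337 well expressed genes (21% of the variance), siCDO1C replicates 1 and 3 scored 10.1 and 13. Replicate 2 scored -13.3, so results with siCDO1C are also given without that library. siCDO1A replicate 3 lay apart from its group as well, at 7.45 where replicates 1 and 2 scored -3.53 and -1.51. On the first component (36.2% of the variance) it scored 4.01, against 11 and 10.3. Member calls without it are given below. Of the prostate markers, FOXA1 was at 872 CPM, HOXB13 at 575 CPM and KLK3 at 40.4 CPM in siCtrl. Of the 9 prostate markers 2 rose and 2 fell with siCDO1A, among them ERG (higher), KLK3 and KRT8 (both lower). With siCDO1C 1 rose and 1 fell, and KLK3 was the lower one. Among all genes tested by edgeR, 14.8% passed an adjusted p of 0.05 with siCDO1A and 4.77% with siCDO1C. Of 9 markers of other cell types, PTPRC, CD68, COL1A2, PECAM1, KRT5 and TP63 were too low to be tested, and of the 3 tested COL1A1 and CHGA rose with siCDO1A, from 2.4 to 4.09 CPM and from 74.7 to 90.1 CPM, and none passed with siCDO1C. With the replicate number added to the fit as a block (the replicate block), 0 of the markers of other cell types passed with siCDO1A. The part of these shifts in the results was not tested.

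With siCDO1A, 4 of the 9 members tested fell and none rose. CDK2 fell by 19.9%, CDKN1A fell by 18.5%, CDKN1B fell by 16.5% and CCND1 fell by 11.1%. Over all 15555 genes tested, 14.8% were past the threshold (adjusted p of at most 0.05) in this comparison, 7.37% higher and 7.48% lower. With the replicate block, which follows the batch number of the labels, CDK2 was the 1 member that passed (adjusted p = 0.0449). CDKN1B (0.052), CDKN1A (0.0647) and CCND1 (0.113) did not, where 8.73% of all genes passed. Without siCDO1A replicate 3, 3454 of 15555 genes and again 4 members passed. CDK4 was then past the threshold (higher, adjusted p = 0.00767) and CDKN1A was not (0.0527). With siCDO1C, no member passed the threshold by edgeR's test, against 4.77% of all genes (2.27% higher and 2.5% lower), while 4 members had an unadjusted p under 0.05, against 18.6% of all genes. Without siCDO1C replicate 2, those 4 members passed: CCND1 and CDKN1A were lower and CCNE2 and CDK2 were higher. In that fit 13.3% of all genes passed. CDK2 alone passed between siCDO1C and siCDO1A, where 0.444% of all genes did. The median log2 fold change of the 9 members was 0.0222 with siCDO1A, 0.0964 with siCDO1C and -0.0214 between both siRNAs. Over all genes tested the same medians were 0.0102, -0.000233 and -0.00539.

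**Figure D1:**
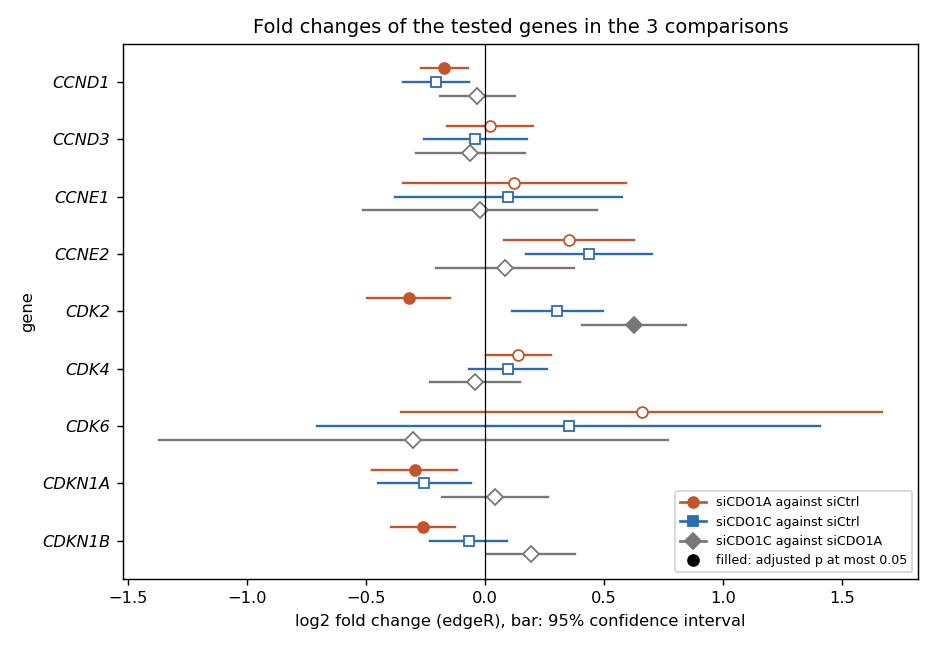
Log2 fold changes of the 9 tested genes (horizontal axis, edgeR) in the 3 comparisons, with bars for the 95% confidence interval and filled symbols for an adjusted p of at most 0.05. CDK2 lies at -0.32 with siCDO1A and at 0.30 with siCDO1C, while CCND1 and CDKN1A lie under 0 in both comparisons with siCtrl.

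Both inhibitors fell with siCDO1A, and the 250 bases before their RefSeq start sites are printed here because CDKN1A and CDKN1B are the genes that restrain this step. CDKN1A lies at chr6:36676460-36687339 on the plus strand (GRCh38, ENSG00000124762) and CDKN1B at chr12:12715058-12722371 on the plus strand (ENSG00000111276). The upstream windows, from RefSeq on GRCh38.p14, are chr6:36678464-36678713 and chr12:12717118-12717367, both on the plus strand and both inside the gene span that the count table gives. Capitals mark GC boxes (GGGCGG, read on both strands).
CDKN1A: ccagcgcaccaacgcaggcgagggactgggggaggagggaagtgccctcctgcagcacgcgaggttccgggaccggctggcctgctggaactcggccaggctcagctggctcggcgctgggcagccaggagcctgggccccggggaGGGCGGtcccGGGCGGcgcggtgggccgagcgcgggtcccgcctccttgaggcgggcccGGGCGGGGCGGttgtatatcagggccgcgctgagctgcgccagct
CDKN1B: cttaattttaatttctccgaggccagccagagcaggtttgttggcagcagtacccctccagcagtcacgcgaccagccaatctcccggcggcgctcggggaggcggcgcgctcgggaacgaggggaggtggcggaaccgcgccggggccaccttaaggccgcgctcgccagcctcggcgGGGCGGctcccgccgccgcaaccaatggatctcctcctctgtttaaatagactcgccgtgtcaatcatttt
CDKN1A had 4 GC boxes, of which the last pair overlaps, and CDKN1B had 1, where 42.6% of 35116 promoter windows of the same length held at least 1. Their GC contents were 76.4% and 64.4%. The letters CCAAT were found 2 times in the CDKN1B window and not in that of CDKN1A, and 32% of all windows held them. No E2F site (TTTCCCGC or TTTGGCGC, 1.93% of all windows), E-box (CACGTG, 6.34%) or TATA box (TATAAA, 10.7%) was in either window. These motifs were read on both strands, and an E2F site can share bases with a GC box. The RefSeq table held windows for 6 of the 10 genes, CDKN1A, CDKN1B, CDK4, CDK6, CCND3 and CCNE1, and none for CCND1, CCND2, CCNE2 and CDK2. The CDK4 window (chr12:57752311-57752560, minus strand) held 3 GC boxes and 3 E-boxes, and that of CCNE1 (chr19:29811741-29811990, plus strand) held 7 GC boxes.

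Among the D cyclins, CCND1 dominated and fell with siCDO1A. CCND1 (chr11:69641087-69654474, plus strand, ENSG00000110092) was measured at 615.7, 610.4 and 605.4 CPM in siCtrl and at 531.0, 542.1 and 554.1 CPM in siCDO1A. The siCDO1C libraries held 536.8, 523.6 and 536.4 CPM of CCND1. Every silenced library was under every siCtrl library, and the spread within a group was small beside the gap. The log2 fold change of CCND1 with siCDO1A was -0.17 (SE 0.0473, adjusted p = 0.0183). With siCDO1C, the log2 fold change of CCND1 was -0.20 (SE 0.0655, 95% interval -0.344 to -0.0653, adjusted p = 0.0916), which did not pass. It passed in 2 of 14 alternatives, without siCDO1C replicate 2 (-0.19, adjusted p = 0.00425) and by DESeq2 with all 9 libraries (-0.20, adjusted p = 0.0159). Over the 14 alternatives its adjusted p ran from 0.00425 to 0.353. The siCDO1A call passed in 8 of 14 alternatives (adjusted p 0.00117 to 0.113) and not without siCtrl replicate 1 (0.0942), siCtrl replicate 2 (0.0804), siCDO1A replicate 1 (0.0941) or siCDO1A replicate 2 (0.0654), nor with the replicate block (0.113) or in 1 edgeR fit of the 9 libraries (0.0959).

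CCND3 (chr6:41934933-42050357, minus strand, ENSG00000112576), the other expressed D cyclin, lay between 24.44 and 24.84 CPM in siCtrl, between 24.23 and 26.41 CPM in siCDO1A and between 21.20 and 25.41 CPM in siCDO1C. The groups overlapped. The difference with siCDO1A was 0.02 (95% interval -0.16 to 0.204, adjusted p = 0.898) and with siCDO1C -0.04 (95% interval -0.257 to 0.176, adjusted p = 0.885), both as log2 fold changes. CCND2 (chr12:4273772-4305350, plus strand, ENSG00000118971) had 0 counts in 8 libraries and 1 count in siCDO1C replicate 1, and it was not tested. A count of 0 allows up to 3 counts, which is 0.187 to 0.249 CPM in these libraries, counting error only. Per kilobase of gene length, CCND1 made up 96.8% ± 0.0526 (SD, n = 3) of the D cyclin level in siCtrl, 96.3% ± 0.242 in siCDO1A and 96.4% ± 0.378 in siCDO1C. The siCDO1A libraries lay under the siCtrl libraries in this share, by 0.455 points of mean difference, and siCDO1C overlapped with both.

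**Figure D2:**
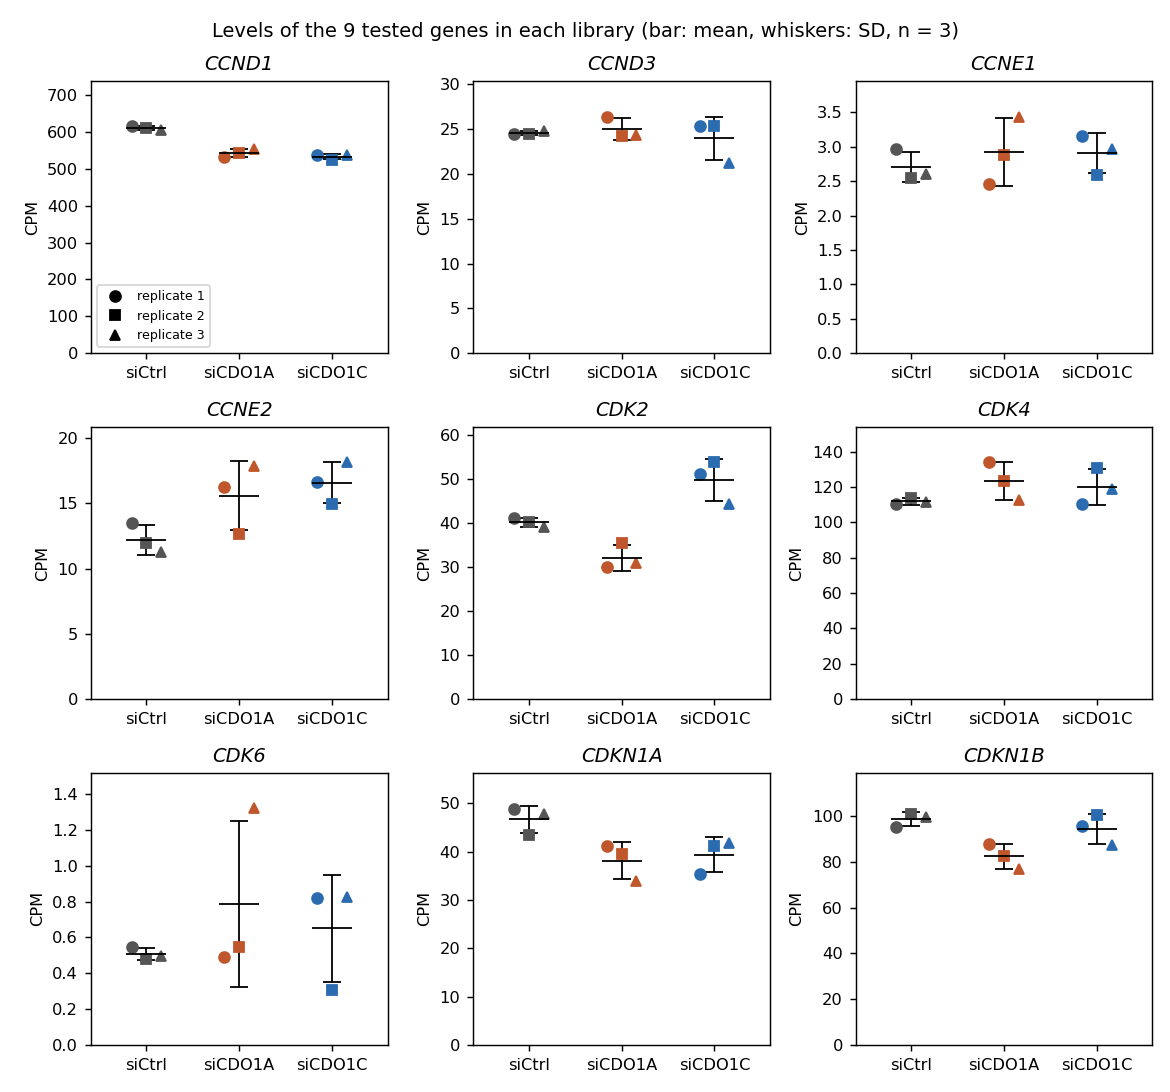
CPM (vertical axis, from 0) of the 9 tested genes in each library, 1 symbol per replicate, with the mean as a bar and the SD as whiskers (n = 3 per group). CCND1 is lower in all 6 silenced libraries, and CDK2 lies under siCtrl in the 3 siCDO1A libraries and above it in the 3 siCDO1C libraries.

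The E cyclins, the partners of CDK2, were expressed at lower levels than CCND1, and neither passed the threshold. CCNE2 (chr8:94879770-94896678, minus strand, ENSG00000175305) was measured at 13.48, 11.94 and 11.24 CPM in siCtrl, at 16.24, 12.66 and 17.85 CPM in siCDO1A and at 16.65, 14.99 and 18.15 CPM in siCDO1C. All 3 siCDO1C libraries were above siCtrl, while siCDO1A replicate 2 lay inside the siCtrl range. The log2 fold change of CCNE2 was 0.35 with siCDO1A (SE 0.131, 95% interval 0.0819 to 0.626, adjusted p = 0.0755) and 0.44 with siCDO1C (SE 0.125, 95% interval 0.171 to 0.702, adjusted p = 0.0584). Leaving out siCDO1A replicate 2 brought the first past the threshold at 0.49 (adjusted p = 0.0238, range over 14 alternatives 0.0238 to 0.22), and leaving out siCDO1C replicate 2 brought the second past it at 0.51 (adjusted p = 0.0054, range 0.0054 to 0.231). With no filter on low counts, both also passed, at an adjusted p of 0.0447 and 0.0366.

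CCNE1 (chr19:29811898-29824308, plus strand, ENSG00000105173) lay between 2.55 and 2.96 CPM in siCtrl, between 2.46 and 3.44 CPM in siCDO1A and between 2.59 and 3.15 CPM in siCDO1C. Its groups overlapped, and the intervals of its log2 fold change were wide, from -0.345 to 0.591 with siCDO1A and from -0.379 to 0.575 with siCDO1C. CCNE2 took 72.4% ± 0.856 (SD, n = 3) of the E cyclin level per kilobase in siCtrl, 75.4% ± 3.72 in siCDO1A and 76.8% ± 1.32 in siCDO1C, with no overlap between siCDO1C and siCtrl.

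CDK2 was the gene on which the siRNAs differed. CDK2 (chr12:55966769-55972784, plus strand, ENSG00000123374), the kinase of cyclin E, was measured at 41.22, 40.21 and 39.00 CPM in siCtrl. In siCDO1A the CDK2 level was 30.02, 35.38 and 30.87 CPM, and in siCDO1C it was 51.18, 53.79 and 44.39 CPM. The 3 groups did not overlap at all, with siCDO1A lowest, siCtrl between and siCDO1C highest. CDK2 fell with siCDO1A, at a log2 fold change of -0.32 (SE 0.0843, 95% interval -0.496 to -0.145, adjusted p = 0.0132), and the call held with the replicate block (adjusted p = 0.0449). Over 14 alternatives its adjusted p ran from 0.008 to 0.0708, and it missed the threshold without siCtrl replicate 1 (0.0612), siCtrl replicate 2 (0.0538) or siCDO1A replicate 1 (0.0708).

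With siCDO1C the log2 fold change of CDK2 was 0.30 (SE 0.0903, 95% interval 0.113 to 0.497, adjusted p = 0.0676), just short of the threshold. It passed in 5 of 14 alternatives (adjusted p 0.036 to 0.228), among them without siCDO1C replicate 2 (0.25, adjusted p = 0.0369) and without siCDO1C replicate 3 (0.38, adjusted p = 0.036). Compared directly, CDK2 was higher in siCDO1C than in siCDO1A by 0.63 on the log2 scale (SE 0.104, 95% interval 0.41 to 0.847, adjusted p = 0.00707), which is 1.55-fold. This difference kept its direction in all 14 alternatives, at 0.572 to 0.705, and passed in 11 of them (adjusted p 1.11e-06 to 0.107), with an adjusted p of 0.00169 without siCDO1C replicate 2. It did not pass without siCDO1A replicate 1 (0.107), siCDO1A replicate 3 (0.0778) or siCDO1C replicate 1 (0.0621). PMEL covers all 6016 bases of CDK2 on the other strand and had a median of 13 counts, with log2 fold changes of -0.83 (adjusted p = 0.263) and -0.13 (adjusted p = 0.897). The libraries were directional, the strand setting of the counting is not given in the sources used here, and the part of PMEL reads in the CDK2 counts was not tested.

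CDK4 (chr12:57747727-57756013, minus strand, ENSG00000135446), the main cyclin D kinase here, was measured at 110.3, 113.9 and 111.4 CPM in siCtrl, at 134.0, 123.7 and 112.7 CPM in siCDO1A and at 110.7, 130.9 and 119.1 CPM in siCDO1C. The groups overlapped, with siCtrl the narrowest. Its log2 fold change was 0.14 with siCDO1A (95% interval 0.00561 to 0.277, adjusted p = 0.159) and 0.10 with siCDO1C (95% interval -0.0668 to 0.259, adjusted p = 0.558). Without siCDO1A replicate 3 the first passed at 0.20 (adjusted p = 0.00767, range over 14 alternatives 0.00767 to 0.551). TSPAN31 (median 259 counts) and MARCH9 (median 580 counts) overlap CDK4 on the other strand, and neither passed in a comparison with siCtrl.

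CDK6 (chr7:92604921-92836594, minus strand, ENSG00000105810), the second cyclin D kinase, was close to the limit of detection, with 4 to 20 counts per library. Its level was 0.55, 0.48 and 0.50 CPM in siCtrl, 0.49, 0.55 and 1.32 CPM in siCDO1A and 0.82, 0.30 and 0.83 CPM in siCDO1C. siCDO1A replicate 3 stood alone at the top. The 95% intervals of its log2 fold change, -0.354 to 1.67 with siCDO1A and -0.705 to 1.41 with siCDO1C, leave a difference undetectable at this depth.

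**Figure D3:**
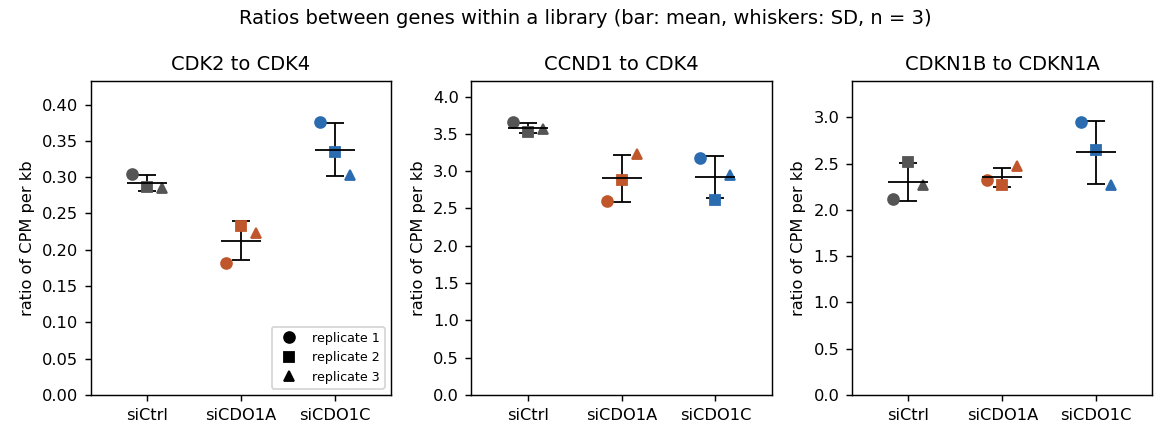
Ratios of levels per kilobase within each library (vertical axis, from 0), for CDK2 to CDK4, CCND1 to CDK4 and CDKN1B to CDKN1A, with the mean as a bar and the SD as whiskers (n = 3 per group). CDK2 to CDK4 lies at 0.182 to 0.233 in siCDO1A, under the 0.285 to 0.304 of siCtrl. The siCDO1C libraries lie at 0.303 to 0.376 and overlap with siCtrl.

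The balance between the kinases moved with CDK2. Per kilobase, CDK2 took 22.6% ± 0.626 (SD, n = 3) of the summed CDK2, CDK4 and CDK6 level in siCtrl, 17.5% ± 1.83 in siCDO1A and 25.2% ± 2.04 in siCDO1C. The siCDO1A libraries lay under both other groups, whereas siCDO1C and siCtrl overlapped. The ratio of the CDK2 to the CDK4 level was 0.304, 0.287 and 0.285 in siCtrl, 0.182, 0.233 and 0.223 in siCDO1A and 0.376, 0.334 and 0.303 in siCDO1C. The ratio of the CCND1 to the CDK4 level was 3.66, 3.52 and 3.56 in siCtrl, above all siCDO1A libraries (2.6, 2.88 and 3.23) and all siCDO1C libraries (3.18, 2.62 and 2.95). The exact permutation test on these shares cannot go below 0.1 with 3 libraries a group, and no test was run on the ratios, so shares and ratios are given as descriptions.

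CDKN1A and CDKN1B, the inhibitors of the CIP/KIP family, both fell with siCDO1A. CDKN1A was measured at 48.70, 43.47 and 47.76 CPM in siCtrl, at 41.10, 39.42 and 33.84 CPM in siCDO1A and at 35.29, 41.08 and 41.75 CPM in siCDO1C. Every silenced library was under every siCtrl library. The log2 fold change of CDKN1A was -0.29 with siCDO1A (SE 0.0854, 95% interval -0.473 to -0.117, adjusted p = 0.0231) and -0.25 with siCDO1C (SE 0.0922, 95% interval -0.451 to -0.0576, adjusted p = 0.141). The siCDO1A call passed in 7 of 14 alternatives (adjusted p 0.0113 to 0.109) and not with the replicate block (0.0647), nor in the fits of all 9 libraries by DESeq2 (0.0512) and edgeR (0.0605), nor without siCtrl replicate 1 (0.109), siCtrl replicate 3 (0.0612), siCDO1A replicate 2 (0.0518) or siCDO1A replicate 3 (0.0527). Without siCDO1C replicate 2 the siCDO1C value was -0.29 and passed (adjusted p = 0.0246, range over 14 alternatives 0.0246 to 0.437).

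CDKN1B was measured at 95.14, 100.9 and 99.81 CPM in siCtrl, at 87.69, 82.60 and 76.93 CPM in siCDO1A and at 95.79, 100.4 and 87.29 CPM in siCDO1C. The siCDO1A libraries lay under siCtrl, and the siCDO1C libraries overlapped with siCtrl. CDKN1B fell with siCDO1A, at a log2 fold change of -0.26 (SE 0.0652, 95% interval -0.396 to -0.125, adjusted p = 0.00964), the lowest adjusted p of the members in this comparison. It passed in 12 of 14 alternatives (adjusted p 0.00503 to 0.0613), with the exceptions of the replicate block (0.052) and the fit without siCtrl replicate 2 (0.0613). With siCDO1C the log2 fold change of CDKN1B was -0.07 (95% interval -0.231 to 0.0946, adjusted p = 0.696), and without siCDO1C replicate 2 it was -0.11 (adjusted p = 0.291). The direct difference between siCDO1C and siCDO1A was 0.19 (95% interval 0.01 to 0.378, unadjusted p = 0.0399, adjusted p = 0.617), so that a different response of CDKN1B to the siRNAs was not shown.

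Counted by library, 4 members had every siCDO1A library under every siCtrl library and none had every one above, where 30.6% of all genes did not overlap between these groups. With siCDO1C, CCNE2 and CDK2 were higher in every library and CCND1 and CDKN1A lower in every library, where 24.2% of all genes did not overlap. Between siCDO1C and siCDO1A, CDK2 alone did not overlap, where 12.7% of all genes did not. Besides CDK2, CDKN1B had an unadjusted p under 0.05 in this direct comparison, where 7.65% of all genes did. For the other 7 members tested the adjusted p between the siRNAs was at least 0.968, with 95% intervals of the log2 difference from -0.19 to 0.126 for CCND1 and from -0.179 to 0.264 for CDKN1A.

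The members spanned a wide range of levels. In siCtrl the level per kilobase of gene length was 126.4 CPM per kb for CCND1, 35.31 for CDK4, 35.08 for CDKN1B, 15.29 for CDKN1A and 10.31 for CDK2. CCND3 followed at 4.237 CPM per kb, CCNE2 at 2.78, CCNE1 at 1.061 and CDK6 at 0.04133, with CCND2 at 0. CDK4 and CDKN1B overlapped between libraries, and all other neighbours in this order were apart. In siCDO1A no neighbours overlapped, with CDK4 at 38.97 CPM per kb and CDKN1B at 29.32. In siCDO1C CDKN1A (12.91 CPM per kb) and CDK2 (12.79) overlapped, as did CDK4 with CDKN1B and CCND3 with CCNE2.

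**Figure D4:**
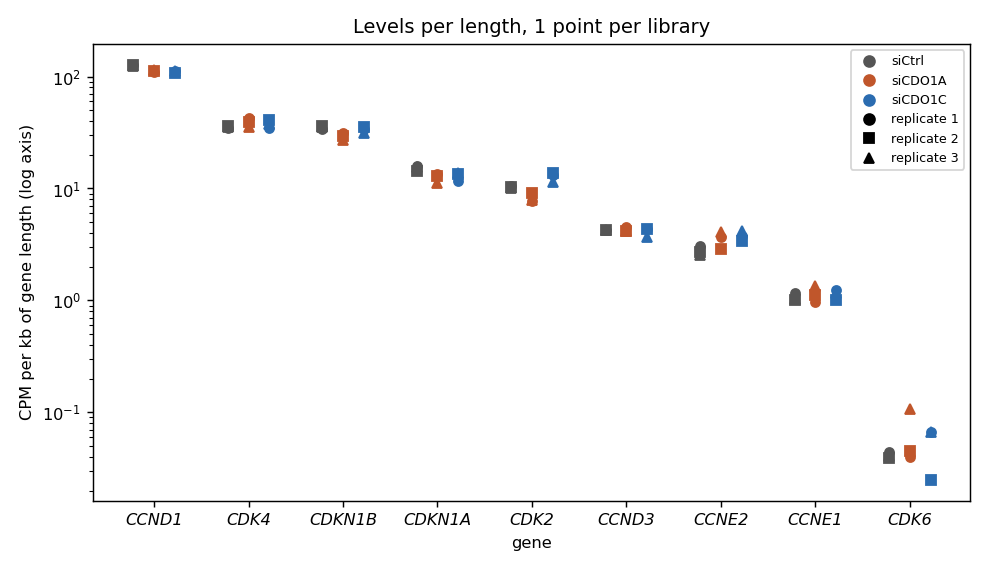
Levels of 9 genes in CPM per kb of gene length (vertical log axis), 1 point per library, ordered by the siCtrl mean, with CCND2 left out because it was at 0 in 8 libraries. CCND1 stands highest at 126.4 CPM per kb in siCtrl and CDK6 lowest at 0.04133.

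For each member that fell with siCDO1A, genes whose log2 CPM followed it most closely over the 9 libraries were looked up among 11337 genes. They were UGT2B15 (Pearson r = 0.99), ADD3 (0.99) and DNAJC3 (0.986) for CCND1, and DPY19L2 (0.951), PAFAH1B2 (0.944) and SLC15A2 (0.943) for CDK2. CDKN1A was followed by SWI5 (0.955), GMPPA (0.939) and DNAJB12 (0.937), and CDKN1B by RALB (0.956) and TDRD7 (0.948). These values are descriptions, since the 9 points share the 3 groups.

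The partners of these genes were read from 8 pathway lists. Over all genes tested, 14.8% passed with siCDO1A and 4.77% with siCDO1C. The shares were 13.3% with siCDO1C without its replicate 2 and 8.73% with siCDO1A under the replicate block. Among 17 genes of the pocket proteins, the E2F factors and their partners, which act right after the kinases, 4 rose and 2 fell with siCDO1A, and 2 rose with siCDO1C (4 passed without siCDO1C replicate 2). With the replicate block 2 genes of this list passed with siCDO1A. E2F1, an activator of S phase genes, rose with both siRNAs, by 0.29 (adjusted p = 0.00455) and 0.33 (adjusted p = 0.0326) on the log2 scale. E2F2, of the same class, rose by 0.33 with siCDO1A (adjusted p = 0.0132) and by 0.44 with siCDO1C (adjusted p = 0.00964). E2F4, a mostly repressive factor, rose by 0.29 with siCDO1A (adjusted p = 0.0241) and was at 0.19 with siCDO1C (adjusted p = 0.296). The pocket proteins RB1 and RBL2 fell with siCDO1A, by 0.28 (adjusted p = 0.0292) and 0.39 (adjusted p = 0.000654), and were at -0.09 (adjusted p = 0.638) and -0.31 (adjusted p = 0.0549) with siCDO1C. The median log2 fold change of this list was 0.0614 and 0.0199, where all genes had 0.0102 and -0.000233.

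None of 8 other CDK inhibitors and CDK-binding proteins passed by edgeR with siCDO1A (3 at an unadjusted p under 0.05), and with siCDO1C CDK2AP2, a CDK2-associated protein, fell by 0.34 (adjusted p = 0.0399), at -0.11 with siCDO1A (adjusted p = 0.367). Of 21 tested genes of the phosphatases and the turnover of G1 regulators, 1 rose and 3 fell with siCDO1A. CKS2, a small CDK-binding protein, fell by 0.32 (adjusted p = 0.00991), the F-box protein FBXW8 by 0.29 (adjusted p = 0.0208) and GSK3B, which marks cyclin D1 for export and breakdown, by 0.21 (adjusted p = 0.0477). With siCDO1C these 3 were at -0.13, -0.28 and -0.09 and did not pass (adjusted p 0.554, 0.287 and 0.622). DTL, which recruits CDKN1A for breakdown, rose by 0.30 with siCDO1A (adjusted p = 0.02) and by 0.37 with siCDO1C (adjusted p = 0.0322), the only call of this list with siCDO1C. Without siCDO1C replicate 2, 6 genes of the turnover list and 2 of the inhibitor list passed. With the replicate block 1 gene of the turnover list passed with siCDO1A and 0 with siCDO1C. Their medians were 0.00805 and -0.00837 for turnover and -0.0115 and -0.233 for the inhibitors. Of all genes, 14.8% and 4.77% passed.

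Among 14 genes of the CDK-activating kinase and of other cyclins and kinases, 2 rose and 3 fell with siCDO1A, and 1 rose and 1 fell with siCDO1C (5 passed without siCDO1C replicate 2, and 1 with the replicate block). CCNG2, an atypical cyclin tied to growth arrest, fell by 0.39 (adjusted p = 5.49e-05) and was at -0.27 with siCDO1C (adjusted p = 0.0521). CCNY, a membrane-bound cyclin, fell by 0.36 (adjusted p = 0.000368) and 0.35 (adjusted p = 0.00829), and CCNC, the Mediator cyclin, fell by 0.26 with siCDO1A (adjusted p = 0.00713) and was at 0.02 with siCDO1C (adjusted p = 0.926). The splicing-related cyclin L genes were higher: CCNL1 rose by 0.33 with siCDO1A (adjusted p = 0.00736) and was at 0.32 with siCDO1C (adjusted p = 0.0533), and CCNL2 rose by 0.25 in siCDO1A libraries (adjusted p = 0.0198) and by 0.29 in siCDO1C libraries (adjusted p = 0.0414). The list medians were 0.0426 and 0.0279, and 14.8% and 4.77% of all genes passed. Of 8 tested cyclins, kinases and regulators of S, G2 and M phase, CCNB1 fell with siCDO1A by 0.19 (adjusted p = 0.0188) and was at -0.17 with siCDO1C (adjusted p = 0.297), where none passed by edgeR (1 at an unadjusted p under 0.05, and 2 past the threshold without siCDO1C replicate 2). With the replicate block 0 genes of this list passed in either comparison. The list medians were -0.0832 and -0.0743.

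**Figure D5:**
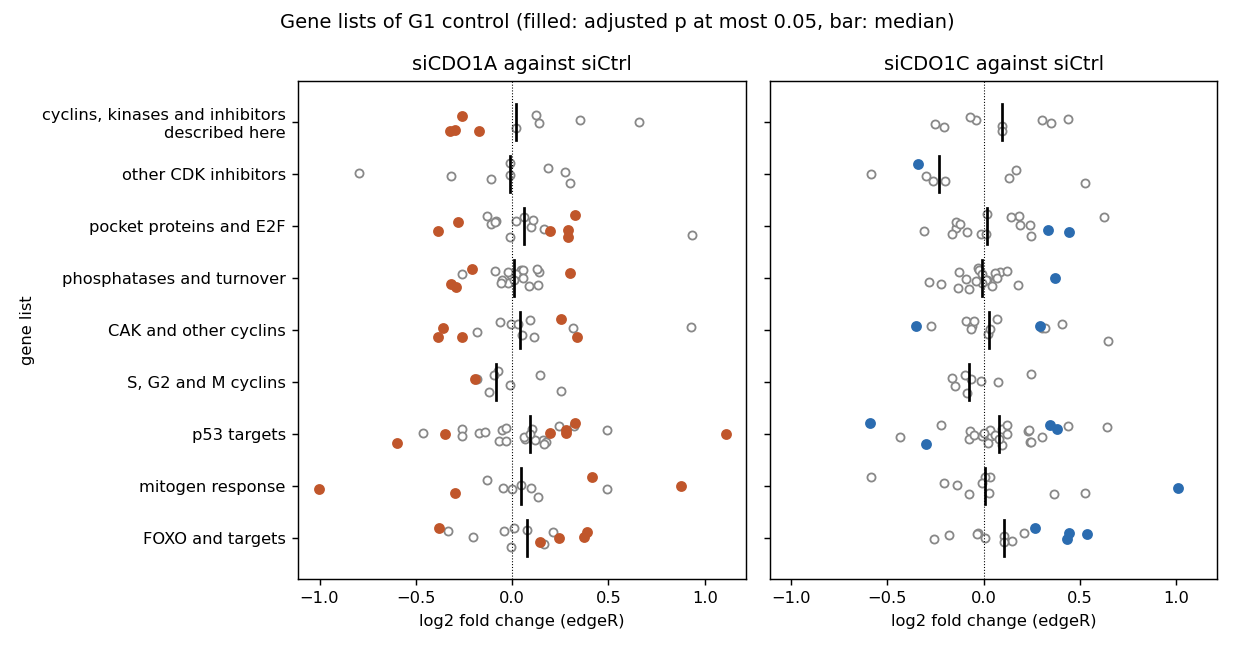
Log2 fold changes (horizontal axis, edgeR) of the tested genes of the members and 8 pathway lists (rows) with siCDO1A and with siCDO1C, 1 point per gene, filled for an adjusted p of at most 0.05, with a bar at the list's median. The 4 filled points of the members lie under 0 with siCDO1A, and none is filled with siCDO1C.

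Of 27 tested p53 target genes, the class to which CDKN1A belongs, 5 rose and 2 fell with siCDO1A, and 2 rose and 2 fell with siCDO1C (6 passed without siCDO1C replicate 2). PLK3 rose by 1.11 on the log2 scale with siCDO1A (adjusted p = 0.0102) from a low mean of 1.31 to 2.83 CPM, and was at 0.64 with siCDO1C (adjusted p = 0.304). SESN1 rose by 0.33 (adjusted p = 0.00205) and 0.34 (adjusted p = 0.0361), AEN by 0.28 with siCDO1A (adjusted p = 0.0151), at 0.25 with siCDO1C (adjusted p = 0.173), and BTG2, an antiproliferative gene, by 0.28 (adjusted p = 0.00736) and 0.38 (adjusted p = 0.0104). FAS, a death receptor, fell by 0.35 (adjusted p = 0.0014) and 0.30 (adjusted p = 0.0423), and SESN2 fell by 0.59 with siCDO1C (adjusted p = 0.0304), at -0.26 with siCDO1A (adjusted p = 0.205). PLK2 fell by 0.60 with siCDO1A (adjusted p = 0.00274) and was at 0.06 with siCDO1C (adjusted p = 0.864). The medians were 0.0923 and 0.0799, and 14.8% and 4.77% of all genes passed. Calls of this list under the replicate block, where 8.73% of all genes passed with siCDO1A, are not given here.

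The lists that stand upstream of the D cyclins and of CDKN1B were also mixed. Of 11 tested genes of the mitogen response, 2 rose and 2 fell with siCDO1A and 1 rose with siCDO1C (3 passed without siCDO1C replicate 2). With the replicate block 2 of these genes passed with siCDO1A, and none did without siCDO1A replicate 1. PHLDA1 rose by 0.88 (adjusted p = 0.0241) and 1.01 (adjusted p = 0.0322), and the transcription factor ETS2 rose by 0.41 with siCDO1A (adjusted p = 0.027), at 0.37 with siCDO1C (adjusted p = 0.147). SPRY4, an inhibitor of the MAP kinase cascade, fell by 1.00 with siCDO1A (adjusted p = 0.0279) from a mean of 2.4 to 1.2 CPM, and was at -0.59 with siCDO1C (adjusted p = 0.301). FOSL2, an AP-1 subunit, fell by 0.30 with siCDO1A (adjusted p = 0.0237), at -0.08 with siCDO1C (adjusted p = 0.799). The medians were 0.0467 and 0.00708, and 14.8% and 4.77% of all genes passed.

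Among 13 FOXO factors and targets, the class to which CDKN1B belongs, 4 rose and 1 fell with siCDO1A, and 4 rose with siCDO1C, also without siCDO1C replicate 2. With the replicate block 3 genes of this list passed with siCDO1A. IRS2, an adaptor of the insulin receptor, rose by 0.39 (adjusted p = 0.000135) and 0.54 (adjusted p = 0.000829), and FOXO3, a factor that can induce CDKN1B, by 0.37 (adjusted p = 0.000227) and 0.44 (adjusted p = 0.00963). CITED2 rose by 0.24 (adjusted p = 0.0183) and 0.43 (adjusted p = 0.00304) and TRIB1 by 0.14 (adjusted p = 0.043) and 0.27 (adjusted p = 0.0307). FOXO4 fell by 0.38 with siCDO1A (adjusted p = 0.00694), at -0.26 with siCDO1C (adjusted p = 0.173). The medians were 0.0776 and 0.106, and 14.8% and 4.77% of all genes passed. Leaving out siCtrl replicate 1 took every pathway list but the FOXO list (3 calls) to 0 calls with siCDO1C. With siCDO1A the p53 list kept 5 to 8 calls whichever library was left out. Without siCtrl replicate 1, siCDO1A kept 2 calls in the E2F list and 1 in the turnover list, and the mitogen list is not given. The CDK-activating kinase list and the FOXO list kept 3 calls each. In these fits 279 (siCDO1C) and 1348 (siCDO1A) of 15555 genes passed, against 742 and 2309 with all libraries. With siCDO1C, calls over all genes also fell without siCtrl replicate 2 (272) or replicate 3 (263).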

How the data were processed

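Poly(A) RNA of 9 VCaP libraries was sequenced as directional libraries. The authors counted reads per gene with featureCounts, and the deposited counts are whole numbers without normalization. The submitters' processing notes also name HISAT2 2.0.5, CASAVA and hg38. The study's methods give CASAVA as the base-calling step, and the roles of HISAT2 and hg38 are not given. Strand and multiple-mapping settings are not given in the sources used here. The table holds 3 further columns that match no sample and were used in no step, and 0 columns of the authors' comparisons.

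Libraries were grouped by siRNA from their labels and compared in 3 pairs of groups. Genes were kept by filterByExpr (minimum count 10), which left 15555, counts were scaled by TMM (factors 0.9898 to 1.01) and tested with the quasi-likelihood test of edgeR 4.0.16 (limma 3.58.1, R 4.3.3) on the 6 libraries concerned, with Benjamini-Hochberg adjustment over all genes tested and a threshold of 0.05. The procedure was tested on simulated data without batches. The planted fold changes were larger than those of the members called against siCtrl, so the simulation does not show how well such smaller changes are found. CPM used the summed counts of the genes kept, multiplied by the TMM factors (the limit of 3 counts used the full library totals), levels per kilobase used the table's gene length, and a fold change is on the log2 scale. Alternatives were DESeq2 1.42.0, 1 edgeR fit of 9 libraries, RLE factors, no filter, at least 10 counts in every library, no robust estimation, an adjusted p of 0.01, the replicate block and leaving out each library.

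The labels give a batch number equal to the replicate number. What libraries of the same number shared in practice is not given in the sources used here. The deviations of same-numbered libraries from their group means correlated at -0.198, -0.0884 and -0.37 for siCDO1A with siCtrl, at 0.0513, -0.00845 and -0.272 for siCDO1C with siCtrl and at -0.131, 0.124 and 0.372 for siCDO1C with siCDO1A. The study's methods compare each siRNA with its control and mention no block, but they give no design formula. The block was kept as an alternative here.

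Named genes are CDO1, the members, the prostate markers as a check, up to 3 called genes per list, direction and comparison (all where 5 or fewer are called) and the 3 genes most alike to each called member. Genes that overlap a member are named beyond this rule. Some genes that the rule names are not reported here. The members and lists were chosen with earlier results of these data known. Replicates are titled as biological, but how their cultures were separated is not given in the sources used here, so p-values measure the spread between these libraries.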

Additional observations from a re-analysis of the deposited data

Results flagged for a closer look

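Among the members and listed genes, 2 results differed between the siRNAs by the direct test of edgeR, which 0.444% of all genes passed. CDK2 was higher in siCDO1C than in siCDO1A by 0.629 on the log2 scale (adjusted p = 0.00707, n = 3 per group), at 51.18, 53.79 and 44.39 CPM against 30.02, 35.38 and 30.87 CPM. PLK2, a kinase gene of the p53 target list, was higher by 0.655 (SE 0.136, 95% interval 0.368 to 0.942, adjusted p = 0.0389), at a mean of 13.1 against 8.27 CPM, with 12.5 CPM in siCtrl. In both genes every siCDO1C library was above every siCDO1A library, where 12.7% of all genes did not overlap between these groups. The PLK2 call held without siCDO1C replicate 2 and with the replicate block, and it was lost when any other of the 6 libraries was left out.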

How the results depend on the processing

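Of 4, 0 and 1 members past the threshold with siCDO1A, with siCDO1C and between the siRNAs, an adjusted p of 0.01 left 1 with siCDO1A, and 1 edgeR fit of 9 libraries gave 2 with siCDO1A and 1 with siCDO1C. DESeq2 with 9 libraries gave 2 members with siCDO1C, as did no filter. The replicate block, which follows the batch number of the labels, left 1 member with siCDO1A (CDK2, adjusted p = 0.0449). CCND1 (0.113), CDKN1A (0.0647) and CDKN1B (0.052) lost their calls there. With siCDO1C and between the siRNAs the block changed no member's call. Leaving out 1 library gave 1 to 4 members with siCDO1A, 0 to 4 with siCDO1C and 0 to 1 between the siRNAs. Over all genes, the main counts were 2309, 742 and 69. With siCDO1C, DESeq2 with 9 libraries gave 1016, the edgeR fit of 9 libraries 988, no filter 1020 and the block 634. The adjusted p of 0.01 gave 1107, 282 and 24, DESeq2 with 9 libraries gave 1386 with siCDO1A and 174 between the siRNAs, the edgeR fit of 9 libraries 1369 and 128, and the block 1358 and 121, while no filter gave 153 between the siRNAs. Leave-one-out counts ran from 1292 (without siCtrl replicate 2) to 3454 (without siCDO1A replicate 3), from 263 (without siCtrl replicate 3) to 2068 (without siCDO1C replicate 2) and from 18 (without siCDO1A replicate 2) to 447 (without siCDO1C replicate 2). The cause was not tested. A fit that left 2 libraries against 3 pooled the spread of the groups. Signs turned in leave-one-out alone, for 13 member folds, none of them past the threshold, and 6 share differences. The log2 ranges were -0.0168 to 0.0443 for CCND3 and -0.0124 to 0.224 for CCNE1 with siCDO1A, and -0.0772 to 0.0376 for CCND3 with siCDO1C. Between the siRNAs they were -0.107 to 0.0205 for CDK4, -0.0456 to 0.215 for CCNE2, -0.123 to 0.129 for CCNE1, -0.527 to 0.327 for CDK6, -0.0228 to 0.116 for CDKN1A and -0.104 to 0.0175 for CCND3. The share of CCND1 ranged from -0.138 to 0.211 points, that of CCND3 from -0.215 to 0.133 and that of CDK6 from -0.0628 to 0.0207 between the siRNAs, and that of CDK6 from -0.00411 to 0.0794 with siCDO1A. Depth limits CDK6 and CCND2 most.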
